A study of Gallus gallus with 24 samples.

Results

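Genes of RNA splicing factor families were examined in the liver of growing chickens. They were chosen by symbol, as the genes that the probe annotation names SRSF, HNRNP, SNRP, SF3A or SF3B, PRPF, LSM or DDX followed by a number or, for SNRP and HNRNP, further letters. The rule found 61 genes on 112 probes, among 6385 genes with a symbol and 14855 features tested in all, and all 61 had enough values to be tested (3 or more of the 4 arrays of every age). Each of the 24 two-colour cDNA arrays set the hepatic RNA of a bird from the fat line (FL) against that of a bird from the lean line (LL) of equal age. Both genotypes came from divergent selection on abdominal fat weight over 7 generations and were raised as broilers, without any further treatment in the labels. Birds were compared at 6 ages, every other wk from 1 to 11 wk, with 4 biological replicates of each genotype per age, which gave 24 birds per genotype. The dyes were balanced: FL occupied channel 1 in replicates 1 and 3, and channel 2 in replicates 2 and 4.

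Splicing removes introns from nuclear transcripts and joins the exons. The spliceosome that does this is built anew on each intron from small nuclear ribonucleoproteins (snRNPs), whose RNAs are held in rings of Sm or LSm proteins, together with the SF3 and PRPF proteins that shape the branch site and the catalytic centre. SR proteins (SRSF) mostly promote the use of nearby splice sites, many hnRNPs (HNRNP) package nascent RNA and often act in the opposite direction, and DEAD-box helicases (DDX) remodel RNA at many steps of its life. These roles are known mostly from human and yeast. By role, 44 of the 61 genes are splicing or nuclear RNA-binding factors, and 17 have symbols that fit the rule but are better known for other work: 10 helicases of ribosome assembly and 7 proteins of translation, RNA export, germ cells or DNA. The split by role was made after the values had been seen.

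The base of the logarithm and the direction of the ratio are not stated in the labels, and it is not known whether dye-swapped arrays had been turned before deposit. Values are therefore given as signed ratios, read as log2, with no statement on which genotype was higher. A ratio between birds carries no level, so the identity of the tissue could not be checked from marker levels, and fewer cells of a type cannot be told apart from less RNA per cell in whole liver. The deposited ratios were split into a common term, which has the same sign in both dye orientations, and a genotype term, which changes sign with the dyes. The common term holds a difference between the dyes or, if the columns had been turned before deposit, a difference between the genotypes, and these cannot be told apart. Errors are standard errors (SE) of the fit, and a gene was called at an adjusted p of 0.05 or less.

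The arrays held between 18795 and 18970 values of 19200 probes. The median ratio lay between -0.02 and 0.03 on 23 arrays and was 0.33 on 7 wk replicate 1, on which all 61 genes were positive. Of all features, 7.82% were negative on this array. The column of 1 wk replicate 4 ran against the mean of the other arrays (r = -0.307 across features) and fell under -0.3 with 4 of 11 arrays of its own orientation, so that its direction was not settled. It correlated with 1 wk replicate 3 at 0.564, and 7 wk replicate 1 with 11 wk replicate 4 at 0.796. Values without these arrays are given where they bear on a result. In the common term 37.6% of all features were called. Of 8 measured hepatocyte markers 4 were called (CFI, APOH, TTR and APOA1), all negative. ALB, AHSG, FGA and FGB lay between -0.26 and -0.15 without a call. The mean of the 8 per array ran from -1.17 to 0.52 and was negative on 22 arrays. Of 8 mesenchymal markers, 4 were called positive and 1 negative, with array means from 0.01 to 0.74. Of 4 erythrocyte markers 3 were called positive (array means -0.05 to 0.41), of 6 macrophage markers 2 positive and 1 negative (-0.50 to 0.29), and of 7 proliferation markers 1 positive (-0.13 to 0.57). The part of other cell types in the values below was not tested.

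The first comparison asked which of the 61 genes kept a ratio of the same sign on both orientations. In the common term 14 genes were called positive and 9 negative. That is 37.7% of the genes, beside 37.6% of all features (24.2% positive and 13.5% negative), so the share was near the background. With every array centred on its median 14 genes were called positive and 10 negative, beside 20.8% and 20.6% of all features. Without centring, as in the rest of this paragraph, the median of the 61 genes was 0.03, beside 0.02 for all features. Ratios were small: the genes ran from -0.32 for DDX5 to 0.34 for SNRPE, and 4 called genes passed 1.2-fold (6.56%, beside 7.92% of all features). On at least 20 of 24 arrays 12 genes had the same sign, which is 19.7% beside 18.2% of all features.

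**Figure D1:**
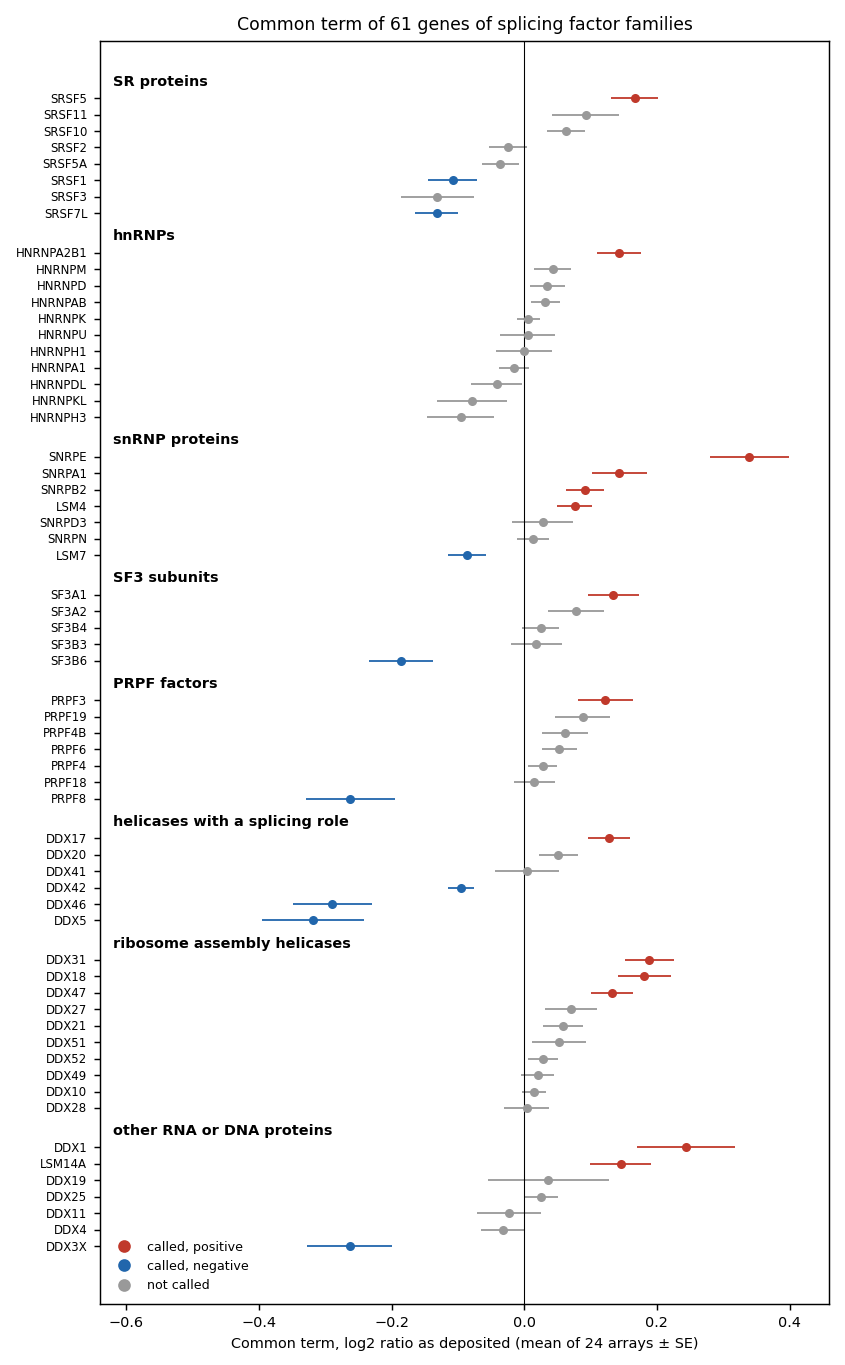
The common term of each gene, as the mean log2 ratio of 24 arrays with its SE on the x axis, is plotted by role, with called genes coloured by sign. DDX5, DDX46, DDX3X and PRPF8 lie farthest to the left, between -0.32 and -0.26, and SNRPE farthest to the right at 0.34.

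The SR proteins were split between the directions. Of 8 genes 1 was called positive and 2 negative, beside 24.2% and 13.5% of all features, with a median of -0.03. SRSF5 had 0.17 ± 0.04 (adjusted p = 0.00138, n = 24 arrays, limma), and its ratios ran from -0.08 over a median of 0.14 to 0.53, with 20 of 24 arrays positive. SRSF7L, annotated as a relative of SRSF7, had -0.13 ± 0.03 (adjusted p = 0.00402), with values from -0.46 over -0.08 to 0.14 and 20 arrays negative. SRSF1, the classical SR protein that acts both on constitutive and on alternative exons, had -0.11 ± 0.04 (adjusted p = 0.0280), from -0.37 over -0.13 to 0.42. Its 4 positive arrays were 1 wk replicates 3 and 4 (0.17 and 0.15), 5 wk replicate 1 (0.10) and 7 wk replicate 1 (0.42). The call for SRSF1 was lost without any of 6 arrays (1 wk replicate 2, 3 wk replicates 3 and 4, 9 wk replicates 3 and 4, or 11 wk replicate 3), with values from -0.10 to -0.09. SRSF3, the smallest SR protein, had the same size as SRSF7L with a wider error, at -0.13 ± 0.05 (adjusted p = 0.0645), and did not pass. SRSF3 was called with the arrays centred (-0.15, adjusted p = 0.0305), with the sign of 1 wk replicate 4 turned (-0.18, adjusted p = 0.00242) and without the 4 arrays named above (-0.21, adjusted p = 0.000899).

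Of the 11 hnRNPs 1 was called, beside 37.6% of all features, and their median was 0.00. HNRNPA2B1, which binds nascent transcripts and also takes part in RNA transport, had 0.14 ± 0.03 (adjusted p = 0.00245). Its ratios ran from -0.11 over 0.10 to 0.74, the highest on 7 wk replicate 1, and were positive on 21 arrays. HNRNPK, a protein that binds runs of C, was among the most precisely measured of the genes without a call, at 0.01 ± 0.02 with values between -0.14 and 0.14. The other uncalled genes with the smallest errors were DDX10 at 0.01 ± 0.02 and PRPF4 at 0.03 ± 0.02. The uncalled hnRNPs HNRNPH3 and HNRNPM, at -0.10 and 0.04, marked the ends of the rest of the class. Without the 4 arrays named above, HNRNPH3 (-0.15, adjusted p = 0.0183) and HNRNPDL (-0.09 in place of -0.04, adjusted p = 0.0295) were also called.

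The snRNP proteins were called in 5 of 7 cases, 4 positive and 1 negative, with a median of 0.08. Over all features 37.6% were called, and this class of few genes was formed after the values had been seen. SNRPE, a protein of the Sm ring that holds the spliceosomal RNAs, had the highest common term of all 61 genes, at 0.34 ± 0.06 (adjusted p = 0.000329). It was measured by 1 probe. Its ratios were 0.41, 0.42, 0.30 and 0.02 at 1 wk for replicates 1 to 4, and 0.27, 0.42, 0.44 and 0.57 at 3 wk. At 5 wk SNRPE had 0.21, 0.19, 0.30 and 0.08, and at 7 wk 0.99, -0.29, -0.29 and 0.14. It was thus positive on 22 of 24 arrays, and both negative arrays were at 7 wk, where the highest was found as well. At 9 wk SNRPE had 0.40, 0.54, 0.68 and 0.17, and at 11 wk 0.46, 0.51, 0.71 and 0.47, so that all 8 late arrays were positive. SNRPA1 and SNRPB2, which bind each other on the U2 RNA, had 0.14 ± 0.04 and 0.09 ± 0.03 (adjusted p = 0.0112 and 0.0191), each positive on 19 arrays. The 2 LSm ring proteins of the class, which bind the U6 RNA and also serve RNA decay, were called in opposite directions: LSM4 had 0.08 ± 0.03 and LSM7 -0.09 ± 0.03 (adjusted p = 0.0337 and 0.0215). LSM7 was negative on 21 arrays and lost its call with the sign of 1 wk replicate 4 turned (-0.06, adjusted p = 0.0923).

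Of the 5 SF3 subunits, which clamp the U2 snRNP onto the branch site, 1 was called in each direction. Over all features 24.2% were called positive and 13.5% negative. SF3A1 had 0.13 ± 0.04 (adjusted p = 0.00992), with values from -0.19 over 0.10 to 0.75 and 21 arrays positive. SF3B6, the subunit that contacts the branch site, had -0.19 ± 0.05 (adjusted p = 0.00577), from -0.53 over -0.17 to 0.44 and 20 arrays negative. The 4 lowest ratios of SF3B6 fell at 9 and 11 wk, at -0.53, -0.52, -0.49 and -0.47. The uncalled SF3A2, SF3B3 and SF3B4 lay between 0.02 and 0.08.

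Among 7 PRPF genes 1 was called positive and 1 negative, beside 24.2% and 13.5% of all features. PRPF3, a protein of the U4/U6 particle, was called at 0.12 ± 0.04 (adjusted p = 0.0267). The call of PRPF3 was lost with the sign of 1 wk replicate 4 turned (0.11, adjusted p = 0.0580) and without the 4 arrays named above (0.09, adjusted p = 0.121). PRPF8, the large scaffold at the catalytic centre, was called at -0.26 ± 0.07 (adjusted p = 0.00528). For replicates 1 to 4, PRPF8 had -0.33, -0.24, 0.18 and 0.42 at 1 wk, -0.13, -0.38, -0.45 and -0.23 at 3 wk, and 0.10, -0.03, 0.28 and -0.22 at 5 wk. Its ratios were of mixed sign at the first and the third age and all negative between them. At 7 wk PRPF8 had 0.17, -0.33, -0.43 and -0.16, at 9 wk -0.76, -0.58, -0.44 and -0.71, and at 11 wk -0.75, -0.29, -0.56 and -0.42. Every array of 9 and 11 wk was negative. The other 5 PRPF genes lay between 0.02 for PRPF18 and 0.09 for PRPF19 without a call. PRPF19, a ubiquitin ligase of the active spliceosome, was called under these same alternatives (0.11 and 0.09, adjusted p = 0.0193 and 0.0400).

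Of the 6 helicases with a part in splicing, 1 was called positive and 3 negative, beside 24.2% and 13.5% of all features. Their median was -0.05, and the uncalled DDX20 and DDX41 had 0.05 and 0.00. DDX5 and DDX46 had the lowest common terms of the 61 genes. DDX5, a coregulator of transcription and splicing, had -0.32 ± 0.08 (adjusted p = 0.00347). Its ratios were -0.32, -0.23, 0.38 and 0.49 at 1 wk, 0.02, -0.19, -0.84 and -0.55 at 3 wk, and -0.19, -0.64, 0.03 and -0.21 at 5 wk. At 7 wk DDX5 had 0.18, -0.39, -0.75 and -0.21, at 9 wk -0.11, -0.39, -0.60 and -0.83, and at 11 wk -0.95, 0.02, -1.06 and -0.30. It was negative on 18 arrays, with positive values of some size on 1 wk replicates 3 and 4 and on 7 wk replicate 1. DDX46, the counterpart of yeast Prp5 that acts when the U2 snRNP joins, had -0.29 ± 0.06 (adjusted p = 0.00113), from -0.75 over -0.30 to 0.29 and 18 arrays negative. DDX42, a helicase found with SF3B, had -0.10 ± 0.02 (adjusted p = 0.00133), from -0.30 to 0.10 and 21 arrays negative. DDX17, the close relative of DDX5, was called the other way at 0.13 ± 0.03 (adjusted p = 0.00432), from -0.04 over 0.13 to 0.46 and 20 arrays positive. Of its 4 probes 1 was called, at 0.40, and the others had -0.04, 0.02 and 0.13. Probes of cDNA can bind transcripts of close relatives, such as DDX5 and DDX17, HNRNPK and HNRNPKL or SRSF5 and SRSF5A, and this was not tested.

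**Figure D2:**
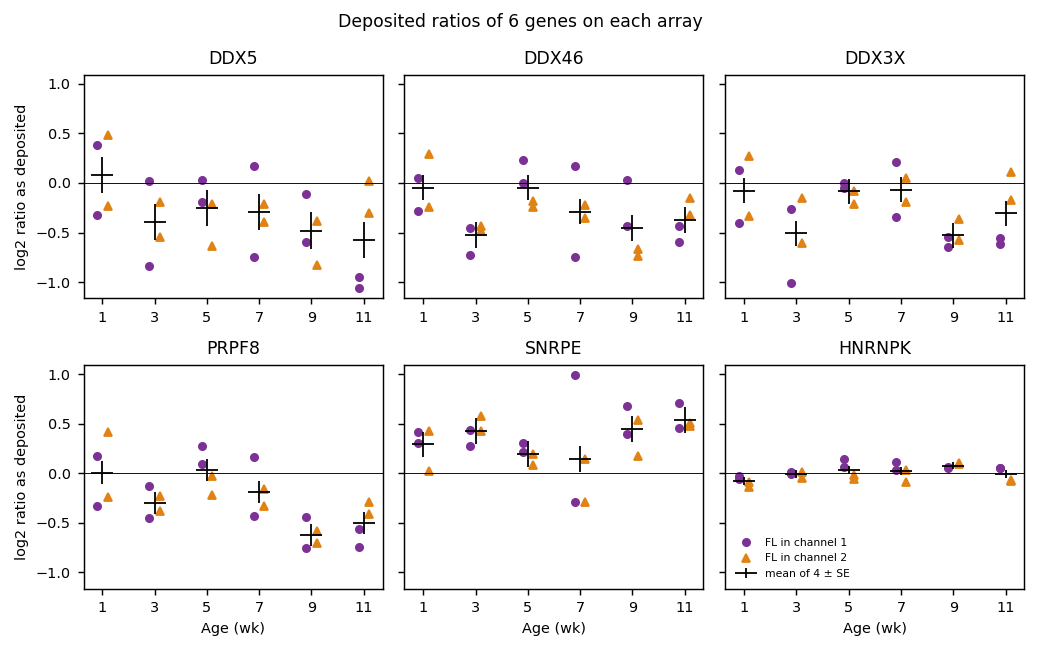
The deposited log2 ratio of each array is plotted against age for DDX5, DDX46, DDX3X, PRPF8, SNRPE and HNRNPK, with the channel of the FL sample by symbol and the mean of 4 arrays with its SE as a cross. PRPF8 is below 0 on every array of 9 and 11 wk, SNRPE above 0 on every array other than 2 at 7 wk, and HNRNPK stays between -0.14 and 0.14.

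Of the genes better known for other work, 6 of 17 were called, 5 positive and 1 negative, beside 37.6% of all features. The 10 ribosome-assembly helicases gave 3 of these, all positive, beside 24.2% of all features called positive. The 3 were DDX31 at 0.19 ± 0.04 (adjusted p = 0.000691), DDX18 at 0.18 ± 0.04 (adjusted p = 0.00179) and DDX47 at 0.13 ± 0.03 (adjusted p = 0.00344). DDX31 ran from -0.27 over 0.23 to 0.41 and DDX18 from -0.31 over 0.14 to 0.86, each with 22 arrays positive. The other 7 helicases of ribosome assembly had values between 0.00 for DDX28 and 0.07 for DDX27. DDX27 lacked a value on 1 of the 24 arrays. DDX3X, a helicase of translation initiation, had -0.26 ± 0.06 (adjusted p = 0.0037), from -1.01 over -0.24 to 0.28 and 19 arrays negative. DDX1, which belongs to the tRNA ligase complex, had 0.24 ± 0.07 (adjusted p = 0.0138), from -0.43 over 0.12 to 1.34. LSM14A, a protein of cytoplasmic mRNA granules, had 0.15 ± 0.05 (adjusted p = 0.0182), from -0.30 over 0.16 to 0.58. DDX46, DDX3X and DDX1 were singled out after their values had been seen.

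DDX5, DDX46, DDX3X and PRPF8 were grouped because their common terms were the lowest, so that joint negative ratios follow from the choice and are given as a description. All 4 were negative on 15 arrays, all 4 positive on 3 and of mixed sign on 6. The 3 arrays with 4 positive values were 1 wk replicates 3 and 4, whose columns correlated with the mean of the other arrays at -0.0381 and -0.307 over all features, and 7 wk replicate 1. On 7 wk replicate 1, with the median of the array subtracted, they had -0.15 for DDX5, -0.16 for DDX46, -0.12 for DDX3X and -0.16 for PRPF8. On 1 wk replicate 4 their ratios were 0.49, 0.29, 0.28 and 0.42 in the same order. Without the 4 arrays named above, 27 genes were called, 22 of them among the 23 (39.5% of all features). The 5 gained were SRSF3, PRPF19, HNRNPH3, HNRNPDL and DDX4, a germ cell helicase (-0.07 in place of -0.03, adjusted p = 0.0392).

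**Figure D3:**
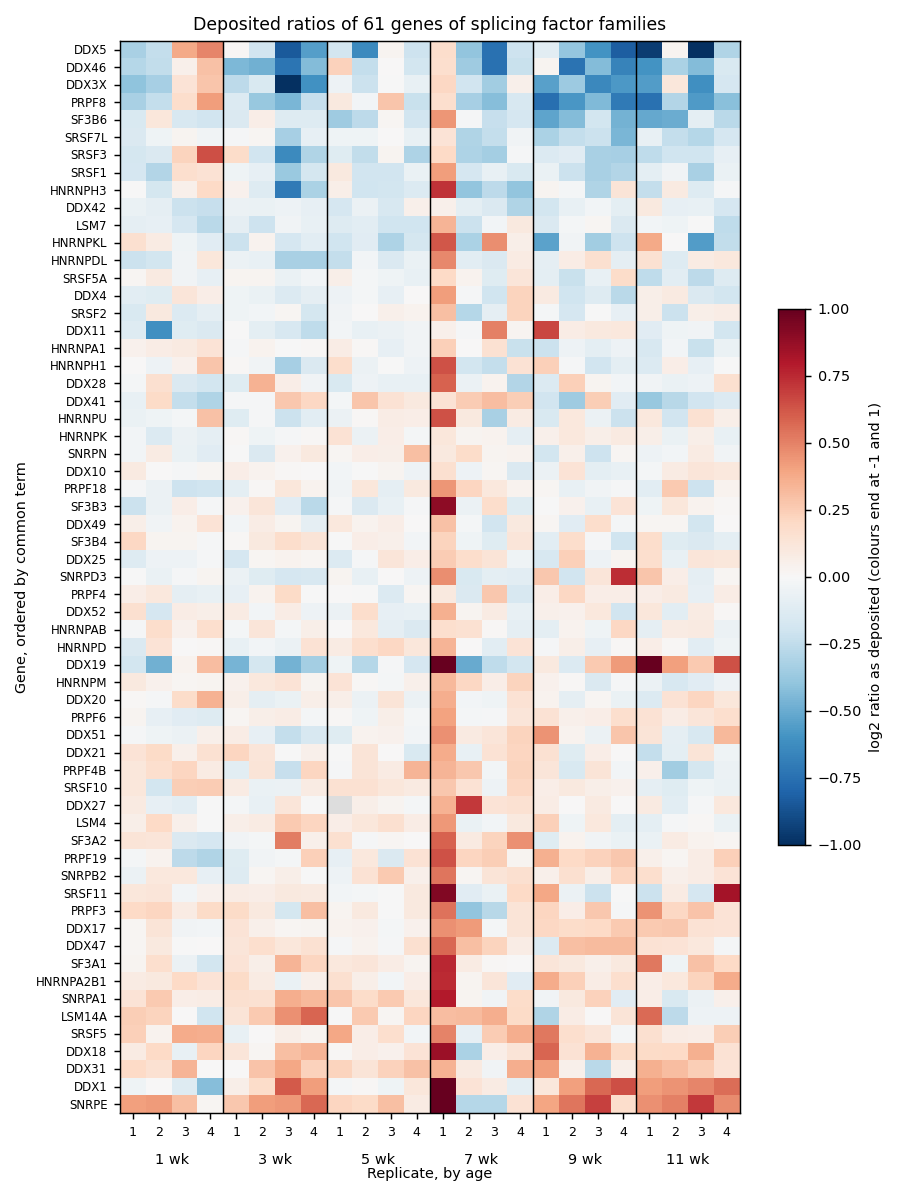
The deposited log2 ratio is shown for each gene (lines, ordered by common term) on each array (columns, by age and replicate), with colours that end at -1 and 1 and a missing value in grey. The column of 7 wk replicate 1 is positive for all 61 genes, and DDX5, DDX46, DDX3X and PRPF8 at the top are blue on most arrays of 3, 9 and 11 wk. On 7 wk replicate 1, 7.82% of all features were negative.

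Probes of the same gene often differed in size or sign, and in 2 genes they were called in opposite directions. Agreement between probes was counted for these genes only and not over all genes of the array. Whether it differed from that of other genes was not tested. Of the 61 genes 34 had several probes and 27 had 1 probe. Among the called genes, 7 had 1 probe, so that no second probe could be compared. These were SNRPE, SRSF5, SF3B6, DDX31, SNRPA1, SNRPB2 and PRPF3. The median gap between the lowest and highest probe of the 34 genes was 0.14. In 19 of the 34 the probes differed in sign. Some of these probes lay near 0, as in SNRPN (-0.01 and 0.04). Tested by probe, 43 of 112 probes were called (38.4%, beside 38.2% of 18963 probes), 26 positive and 17 negative. PRPF8 had the largest gap, 0.86: its 3 probes had -0.73 ± 0.14, -0.19 ± 0.06 and 0.13 ± 0.05, and each was called. SNRPD3 was the other gene with a probe called in each direction, at -0.12 and 0.17. The mean over probes of these genes therefore covers probes with opposite ratios.

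Among 16 called genes with several probes, 4 had every probe called in the direction of the gene. These were DDX5 (-0.37 and -0.27), DDX3X (-0.32 and -0.21), DDX18 (0.14 and 0.22) and DDX46 (-0.51 and -0.07). In 11 some probes were called in that direction, and in 1, LSM14A (0.12 and 0.17), none was. Besides PRPF8, the called genes whose probes differed in sign were SRSF1 (-0.25 and 0.03), SF3A1 (-0.03 and 0.30), DDX47 (-0.08 and 0.34) and DDX17 (-0.04, 0.02, 0.13 and 0.40). The call of HNRNPA2B1 rested mostly on 1 of 5 probes, at 0.49 ± 0.06 and positive on all 24 arrays, while the other 4 had 0.02, 0.03, 0.07 and 0.10. The probe at 0.10 was also called (adjusted p = 0.00501 in limma). Of the 38 genes without a call, 11 had at least 1 called probe. In uncalled genes whose probes differed in sign, the lowest and highest probes ran from -0.38 to 0.11 for SRSF3, -0.18 to 0.05 for SRSF5A, -0.10 to 0.07 for HNRNPA1, -0.11 to 0.03 for HNRNPDL, -0.06 to 0.14 for HNRNPH1 and 0.00 to 0.11 for HNRNPM. In the remaining classes they ran from -0.01 to 0.04 for SNRPN, -0.06 to 0.09 for SF3B3, -0.06 to 0.11 for SF3B4, -0.04 to 0.09 for PRPF4, -0.01 to 0.04 for PRPF18, -0.02 to 0.20 for PRPF19 and -0.10 to 0.21 for DDX41. Probes of the same accession differed in size in DDX1 (0.12 and 0.40). They lay closer together in DDX10 (0.01 and 0.02), DDX18 (0.14 and 0.22) and SRSF7L (-0.13 and -0.06).

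**Figure D4:**
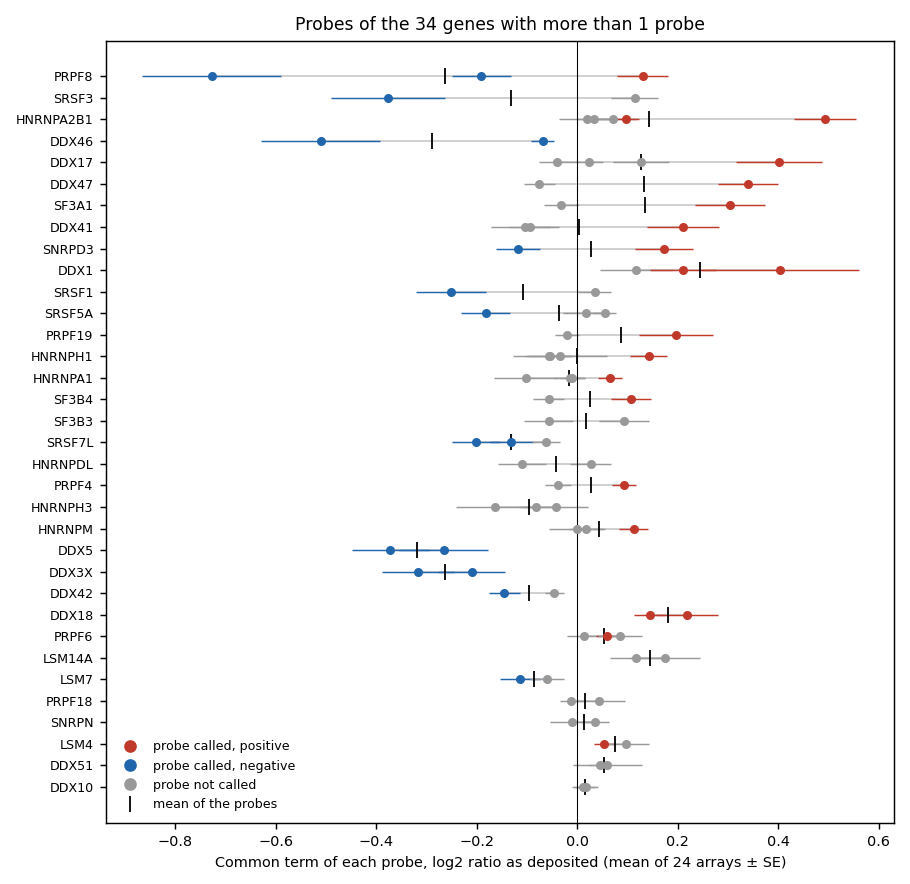
The common term of each probe, with its SE, is plotted for the 34 genes with more than 1 probe, ordered by the gap between probes, and a black bar marks their mean. PRPF8 at the top spans from -0.73 to 0.13, and DDX10 at the bottom has probes at 0.01 and 0.02.

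The next comparison asked whether the genes differed between FL and LL irrespective of age, with each ratio turned by the dye labels. None of the 61 genes was called in limma (0 of 14855 features, 0%), and 1 gene had an unadjusted p under 0.05 (1.64%, beside 3.34% of all features). Turned means ran from -0.08 for DDX11 to 0.08 for DDX3X, with a median of -0.01 as over all features. The smallest p belonged to DDX52, a ribosome-assembly helicase, at -0.06 ± 0.02 (n = 24 arrays, p = 0.0171 and adjusted p = 1.00 in limma, 17 of 24 turned ratios negative). It was followed by HNRNPK at -0.04 ± 0.02 (n = 24, p = 0.0555 in limma) and SRSF5 at -0.06 ± 0.04 (n = 24, p = 0.0823 in limma). The 95% interval of the mean had a median half-width of 0.0746 and lay within 1.2-fold for 60 of the 61 genes and within 1.5-fold for 61. The genes with the largest common terms had small turned means, such as 0.03 ± 0.08 for DDX5, 0.00 ± 0.07 for PRPF8 and -0.07 ± 0.06 for SNRPE. If the columns had been turned before deposit, the genotype difference would lie in the ratios without turning, for which the fit of unsigned age means called 26 genes (42.6%, beside 41.3% of all features).

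**Figure D5:**
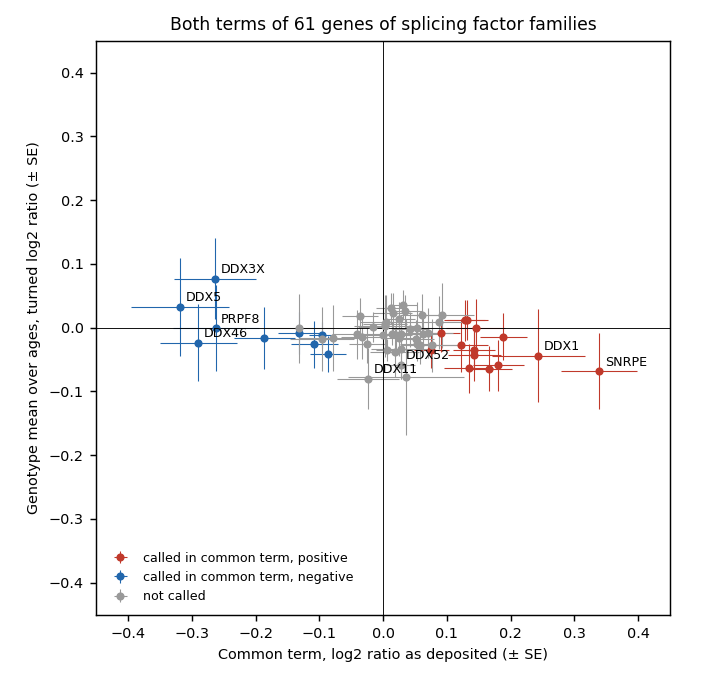
The genotype mean over ages, turned by the dye labels, is plotted against the common term for the 61 genes, both as log2 with their SE. The points spread from -0.32 to 0.34 along the x axis and from -0.08 to 0.08 along the y axis.

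At each age taken alone, none of the 61 genes was called in limma, with 4 arrays per age and a median half-width of the 95% interval of 0.183. The share of all features called was 0% at 1, 3, 5 and 11 wk, 1.1% at 7 wk and 0.00673% at 9 wk. At 7 wk 10 genes had an unadjusted p under 0.05, all negative, which is 16.4% beside 18.6% of all features, and the median turned ratio was -0.08 both for the genes and for all features. With every array centred on its median, the number was 6 (9.84%, beside 11.3% of all features), and without the 4 arrays named above it was 4 (6.56%, beside 9.13%). SF3B3, which like SF3A1 belongs to the U2 snRNP, had the smallest p at 7 wk, with turned ratios negative on 4 of 4 arrays and a mean of -0.31 ± 0.10 (adjusted p = 0.102). As deposited, SF3B3 had 0.89, -0.06, 0.17 and -0.12 at 7 wk. Without 7 wk replicate 1 its turned mean was -0.11 (adjusted p = 0.685). Without 7 wk replicate 3, 7 of the 61 genes were called, all negative: DDX18, DDX28, HNRNPA2B1, HNRNPH3, PRPF3, SF3B3 and SNRPE. Of all 14855 features, 1501 were then called in place of 163. The only array of this age with FL in channel 1 was then 7 wk replicate 1, whose median ratio was 0.33. Its part in the shared sign was not tested.

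At 11 wk 2 genes had an unadjusted p under 0.05 (3.28%, beside 3.04% of all features). SRSF11, an SR-related protein, had 0.32 ± 0.12 with 4 of 4 turned ratios positive, and 0.18 without 11 wk replicate 4, on which its deposited ratio was 0.83. DDX5 had 0.43 ± 0.19. At 1, 3, 5 and 9 wk no gene had an unadjusted p under 0.05, beside 0.464%, 0.828%, 1.17% and 3.25% of all features. The smallest p was that of DDX52 at 1 wk (-0.09 ± 0.05), PRPF4B, a kinase of the spliceosome, at 3 wk (0.17 ± 0.08), HNRNPK at 5 wk (-0.07 ± 0.04) and SNRPN, an Sm protein, at 9 wk (0.11 ± 0.06). The last 3 had the same sign on 4 of 4 turned ratios. No gene was called for a genotype difference that varied with age (0%, moderated F test in limma), and none had an unadjusted p under 0.05, beside 3.96% of all features. PRPF4 and DDX28 had the smallest p, at 0.0849 and 0.0949 in limma (adjusted p = 1.00 for both).

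The last comparison asked whether the ratios as deposited, without turning, differed between ages. PRPF8 was called (adjusted p = 0.0440, moderated F test in limma), which is 1.64% of the genes beside 4.89% of all features. Its age means, each ± 0.11 and in order from 1 to 11 wk, were 0.01, -0.30, 0.03, -0.19, -0.62 and -0.50. The means of 9 and 11 wk also differed from 0 (adjusted p = 0.000607 and 0.00481). By probe, the difference of PRPF8 between ages was called in 1 of 3 probes (adjusted p = 0.0212, against 0.404 and 0.926). That probe had -0.05, -0.68, -0.17, -0.71, -1.54 and -1.21 from 1 to 11 wk. The call of PRPF8 was lost in 16 of 24 cases when an array was left out (adjusted p from 0.0211 to 0.0893 over the 24). It was also lost with the sign of 1 wk replicate 4 turned (adjusted p = 0.0607), with scaled arrays (adjusted p = 0.0725) and with the median over probes (adjusted p = 0.35).

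At a given age as deposited, no gene differed from 0 at 1 and 5 wk (0.121% and 0.074% of all features). At 3 wk DDX3X, DDX46 and LSM14A did (4.92%, beside 6.37%), LSM14A with a positive ratio. At 7 wk 11 genes did (18%, beside 23.6%), all positive. The median of the deposited age means at 7 wk was 0.11 for the genes and 0.09 for all features. The median ratio of 7 wk replicate 1 was 0.33, and the arrays were not centred in this fit. At 9 wk 8 genes were called (13.1%, beside 16%): DDX17, PRPF19 and SNRPE positive, and DDX3X, DDX46, PRPF8, SF3B6 and SRSF7L negative. At 11 wk 8 were called (13.1%, beside 10.4%), with DDX1 at 0.48 ± 0.15 and SNRPE at 0.54 ± 0.13 among the positive and DDX5 at -0.57 ± 0.18 and PRPF8 at -0.50 ± 0.11 among the negative genes. SNRPE, PRPF8, SF3B6 and DDX17 were called at both 9 and 11 wk. Of the 26 genes called over all ages in this fit, 16 were positive and 10 negative.

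Of 104 further genes of the spliceosome and its regulators, 60 were measured, and 23 were called in the common term, 13 positive and 10 negative, with a median of 0.01, beside 37.6% called and a median of 0.02 over all features. The highest were ELAVL1, an RNA-stabilizing protein, at 0.55 ± 0.09, SMNDC1 at 0.28 ± 0.05, CLK2, a kinase of SR proteins, at 0.25 ± 0.04, ISY1 at 0.22 ± 0.04, SMN, which loads Sm rings onto RNA, at 0.19 ± 0.04, and CWC27 at 0.17 ± 0.04. The lowest were WBP11 at -0.45 ± 0.09, TRA2B, an SR-like activator of exons, at -0.34 ± 0.12, AQR at -0.21 ± 0.05, SYNCRIP at -0.20 ± 0.07, QKI at -0.17 ± 0.04 and PPIE at -0.13 ± 0.02. For the genotype mean over ages 0 of the 60 were called in limma, and 1 had an unadjusted p under 0.05. Over all features these shares were 0% and 3.34%.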

How the data were processed

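The deposited value table of the series holds 1 normalized log2 ratio per probe and array, as the authors made it, for 19200 probes on 24 two-colour cDNA arrays of chicken liver. The log base is taken as log2. Base, direction, background correction and normalization are not given in the sources used here, and no signal per channel was used. The paper at hand describes another experiment and served for style only. Symbols came from the probe annotation, which names 10601 probes and leaves 8599 unnamed. Probes of a gene were averaged. A feature needed values on 3 of the 4 arrays of every age.

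The ratios were fitted in limma (version 3.58.1, R 4.3.3) with a coefficient per age, signed by dye orientation, and 1 common term. Tests were two-sided with 17 residual degrees of freedom, and p-values were adjusted over 14855 features (Benjamini-Hochberg, threshold 0.05). The columns were also fitted with unsigned age means. The number of arrays limits the precision. Alternatives were centring, scaling, probe medians, array weights, orientation, single probes and left-out arrays. Single probes and leaving out 4 arrays together were added after the data were seen.

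The members and lists were chosen with earlier results of these data known. Named were called genes whose sign was shared by 20 or more of 24 arrays, the called gene of largest size in each of 7 families, the genes with the smallest p where none was called, the 3 uncalled genes with the smallest SE, genes whose probes differ in sign, and up to 6 called other splicing genes per direction. Other genes were named after their values were seen.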

Additional observations from a re-analysis of the deposited data

Results flagged for a closer look

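Of 168 groups of 4 arrays (the named genes and the median of the 61 genes, at each age), 15 held an array far from the other 3 by Dixon's test at its 95% level. Chance alone gives about 1 in 20 groups, a share of 0.05. Values are log2 ratios as deposited. On 7 wk replicate 1, SF3A1 had 0.75 (others 0.01 to 0.08), SRSF1 0.42 (others -0.17 to -0.08) and DDX1 1.34 (others -0.10 to 0.14). The median ratio of this whole array was 0.33, and arrays were not centred for Dixon's test. The part of this shift in the flags of 7 wk replicate 1 was not tested. On replicate 2, SF3B6 had 0.12 at 1 wk (others -0.19 to -0.15) and 0.0681 at 3 wk (others -0.15 to -0.13), DDX52 had 0.18 at 5 wk (others -0.08 to -0.06), PRPF4 0.21 at 9 wk (others all 0.07) and DDX10 0.14 at 9 wk (others -0.10 to -0.06). On replicate 3, DDX46 had -0.73 at 3 wk (others -0.48 to -0.43), DDX17 -0.0208 at 5 wk (others all 0.04), PRPF4 -0.13 at 5 wk (others -0.01 to 0.02) and PRPF4 -0.0834 at 11 wk (others 0.07 to 0.09). On replicate 4, SNRPN had 0.30 at 5 wk (others 0.02 to 0.07), LSM7 -0.25 at 11 wk (others -0.04 to 0.00) and DDX28 0.16 at 11 wk (others -0.07 to -0.04). PRPF8 was the gene whose deposited ratio differed between ages by a test of the difference itself (adjusted p = 0.0440, moderated F test in limma).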

How the results depend on the processing

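For the 18 genes named for the common term, no sign reversed under any of 37 alternatives each, and SNRPE and PRPF8 kept their calls in 37. All 18 had been named among called genes, and 24 of the 37 alternatives leave out 1 array. Kept signs therefore follow largely from the choice of genes. Single probes are not among these 37, and SNRPE had 1 probe. By probe, PRPF8 was called in both directions, from -0.73 to 0.13, and the probes of SRSF1, SF3A1 and DDX17 differed in sign. The count of genes called positive ran from 13 to 15 and negative from 8 to 11 when an array was left out. With all arrays the count was 14 positive and 9 negative (23% and 14.8%, beside 24.2% and 13.5% of all features). With the 12 arrays that have FL in channel 1 it was 3 positive and 2 negative (4.92% and 3.28%, beside 11.3% and 4.77% of all features), and with the 12 others 7 and 8 (11.5% and 13.1%, beside 12.7% and 11.2%), in fits of fewer arrays. By probe, 23 genes had at least 1 probe called positive, with 26 of 112 probes, beside 23.9% of all probes. If the columns are read as already turned, the genotype counts are 26 for the mean over ages and 3, 11, 8 and 8 at 3, 7, 9 and 11 wk. In this order they are 42.6%, 4.92%, 18%, 13.1% and 13.1% of the genes. The shares of all features are 41.3%, 6.37%, 23.6%, 16% and 10.4%. The values that then reverse are 0.0277 for DDX52, 0.00609 for HNRNPK and 0.17 for SRSF5 (mean over ages), 0.0322 for DDX52 at 1 wk, 0.0317 for HNRNPK at 5 wk, 0.22 for SF3B3 at 7 wk and -0.0811 for SNRPN at 9 wk. At 7 wk, turned by the dye labels, 1 gene was called by probe (HNRNPH3), and leaving out an array gave 0 to 7. The 7 were called without 7 wk replicate 3, beside 1501 of 14855 features. For the difference between ages as deposited the count of 1 (1.64%, beside 4.89% of all features) became 2 with scaled arrays (3.28%, beside 4.5%), 2 with the median over probes (3.28%, beside 4.78%), 8 with array weights (13.1%, beside 13.1%), 4 without 7 wk replicate 1 and 11 wk replicate 4 (6.56%, beside 8.23%), 0 with the sign of 1 wk replicate 4 turned (beside 3.12%), 3 without 4 arrays (4.92%, beside 5.09%), and 6 by probe (6 of 112 probes, beside 5.65% of all probes). Leaving out an array gave 0 to 5, with 5 without 7 wk replicate 1 (beside 8.78%). The cause was not tested.

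Same-numbered arrays of different ages did not deviate together: r exceeded 0.1 in 13 of 60 pairs (median -0.108, other numbers -0.118), and 5 of 24 arrays correlated best with their own number. With the replicate number as a block, 26 genes were called in the common term, beside 47.6% of all features.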
